A study of Mus musculus with 8 samples.

Results

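Expression of 10 genes of innate nucleic acid sensing was followed across cell classes, genotypes and sexes in single nucleus RNA sequencing of mouse cortex. They were chosen by symbol, and all 10 (*Ddx58*, *Ifih1*, *Dhx58*, *Mavs*, *Tmem173*, *Mb21d1*, *Tlr3*, *Tlr7*, *Zbp1* and *Trex1*) were among the 31053 genes of the count table. The nuclei came from naive C57BL6J mice aged 6 weeks. There were 4 wild-type mice (Wt, Ifnar1+/+), 2 female and 2 male, and 4 mice without the type I interferon receptor subunit (Ifnar1-/-), also 2 female and 2 male. Each mouse gave 1 library and is named by genotype, sex and number (Wt F1 is a Wt female).

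Type I interferons are cytokines that cells release after they detect viral or displaced nucleic acids, and they signal through a receptor made of IFNAR1 and IFNAR2. In the cytosol, double-stranded RNA is detected by the helicases RIG-I (*Ddx58*) and MDA5 (*Ifih1*), which LGP2 (*Dhx58*) modulates, and the signal passes through MAVS on mitochondria. Cytosolic DNA is detected by cGAS (*Mb21d1*), whose cyclic dinucleotide product activates STING (*Tmem173*), and TREX1 is an exonuclease that degrades such DNA. TLR3 and TLR7 detect double-stranded and single-stranded RNA inside endosomes, and ZBP1 binds left-handed nucleic acids and starts necroptosis. Several of these sensors are themselves interferon-stimulated genes in many cell types.

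An element read by the interferon-activated factor ISGF3 has a core of 2 GAAA repeats set 2 bases apart (GAAANNGAAA, or TTTCNNTTTC on the other strand). This core was searched on both strands in RefSeq promoters of mouse build GRCm38.p6, from 250 bases before to 50 bases after each start site. Of 32851 promoters in the table, 1131 (3.44%) held it. Of the 10 genes, 6 had an entry, and the core was present in *Ddx58*, from 2 bases after the start, and in *Ifih1*, from 32 bases after it. These are the cytosolic RNA helicases whose microglial levels are compared between genotypes below. They are shown with the promoter of *Mb21d1*, the DNA sensor, which does not hold these letters. The core is in capitals, and each sequence is on the minus strand and is read in the direction of transcription. The promoters are chr4:40239776-40240075 for *Ddx58*, chr2:62646206-62646505 for *Ifih1* and chr9:78443188-78443487 for *Mb21d1* (RefSeq symbol Cgas).

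Ddx58 promoter: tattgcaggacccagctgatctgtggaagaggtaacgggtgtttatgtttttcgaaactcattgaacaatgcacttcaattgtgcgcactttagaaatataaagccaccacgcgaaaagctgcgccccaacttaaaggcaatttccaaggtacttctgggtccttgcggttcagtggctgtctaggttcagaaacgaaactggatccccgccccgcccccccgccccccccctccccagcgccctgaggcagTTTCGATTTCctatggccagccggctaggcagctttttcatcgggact

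Ifih1 promoter: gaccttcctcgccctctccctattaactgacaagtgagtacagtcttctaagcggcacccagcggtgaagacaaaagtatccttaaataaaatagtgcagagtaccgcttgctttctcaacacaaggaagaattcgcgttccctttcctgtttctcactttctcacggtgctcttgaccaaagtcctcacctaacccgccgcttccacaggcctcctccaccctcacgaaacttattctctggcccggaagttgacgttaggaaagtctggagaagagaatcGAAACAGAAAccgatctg

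Mb21d1 promoter: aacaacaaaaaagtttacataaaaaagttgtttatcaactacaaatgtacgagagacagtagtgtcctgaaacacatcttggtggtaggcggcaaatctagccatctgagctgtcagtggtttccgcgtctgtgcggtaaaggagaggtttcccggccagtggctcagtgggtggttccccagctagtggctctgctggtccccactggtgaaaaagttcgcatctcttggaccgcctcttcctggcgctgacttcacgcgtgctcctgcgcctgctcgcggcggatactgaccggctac

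The promoters of *Mavs*, *Tlr3* and *Trex1* did not hold the core in this window either. A match in these letters is a description of the sequence and does not show that a factor binds there. *Dhx58*, *Tlr7*, *Zbp1* and *Tmem173* were not in the promoter table, so their promoters were not searched.

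Of 56780 barcodes, 54341 passed the filters on depth and mitochondrial share, 2262 were called as doublets, and 52079 nuclei were kept (26197 Wt and 25882 Ifnar1-/-). Libraries held 44063346 to 58423423 UMIs (unique molecular identifiers, 1 per captured RNA molecule). Clusters were named from marker genes and never from the sensor genes, which were left out of the clustering. They gave 25814 nuclei that resembled glutamatergic neurons (Glut, median 8927 UMIs), 7174 GABAergic (GABA, 6668), 7088 oligodendrocyte (Oligo, 2056.5), 4386 microglial (Micro, 1472), 452 oligodendrocyte precursor (OPC, 2356) and 171 astrocyte (Astro, 2194) nuclei. A further 2203 nuclei resembled striatal projection neurons, 96 resembled border macrophages, and 4695 stayed unnamed. Astrocytes of Wt F2 and Ifnar1-/- M1 numbered under 10 and were left out, so that 6 libraries remain for that class. Ifnar1-/- M2 stood apart before any sensor gene was looked at: it supplied 96.2% of the nuclei of 1 of 3 microglial clusters (716 nuclei) and 93.0% of 1 oligodendrocyte cluster (899 nuclei). The other 2 microglial clusters divided by sex (6.3% and 94.5% female nuclei). In nuclei passing the filter, 352 barcode sequences occurred in more than 1 library.

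The targeted gene was still detected in Ifnar1-/-. In microglia *Ifnar1* stood at 62.1, 42.4, 54.3 and 56.7 CPM (the UMIs of a gene as a share of the class total, scaled to 1000000) in Wt F1, F2, M1 and M2, and at 22.9, 28.6, 30.8 and 36.2 in the Ifnar1-/- libraries in the same order. The Ifnar1-/- values all lay below the Wt values, at -0.81 on the log2 scale (standard error 0.22). The unadjusted p was 0.0029, and the Benjamini-Hochberg adjusted p from edgeR (quasi-likelihood) was 1.0. The log2 difference was -0.21 in Glut, -0.19 in GABA and -0.04 in Oligo. The labels do not say which part of the gene is deleted, and counts per gene do not show where in the transcript a UMI arose.

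All 10 genes together had 7913 UMIs, or 0.00212% of the UMIs of all nuclei. *Ddx58* had 2066, *Tlr7* 1597, *Tmem173* 1125, *Mb21d1* 941, *Mavs* 745, *Tlr3* 627, *Dhx58* 420, *Ifih1* 367, *Zbp1* 25 and *Trex1* 0. The UMIs of 3 genes came mainly from the small microglial class: 90.8% of *Tmem173*, 85.7% of *Tlr7* and 77.2% of *Tlr3* UMIs came from it. The share was 33.4% for *Mb21d1*, 27.8% for *Ifih1*, 25.0% for *Mavs*, 9.76% for *Dhx58* and 9.49% for *Ddx58*, whose UMIs came mostly from Glut (66.7% and 57.8%). Levels below are given in CPM without further scaling, as the mean ± SD over libraries. They are affected by gene length when genes are compared. Per kilobase of gene, the order in microglia was *Tmem173* (23.4 CPM per kb), *Tlr7* (8.16), *Tlr3* (4.88), *Mb21d1* (3.50), *Mavs* (1.92), *Ddx58* (0.786), *Dhx58* (0.734), *Ifih1* (0.275) and *Zbp1* (0.0538).

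**Figure D1:**
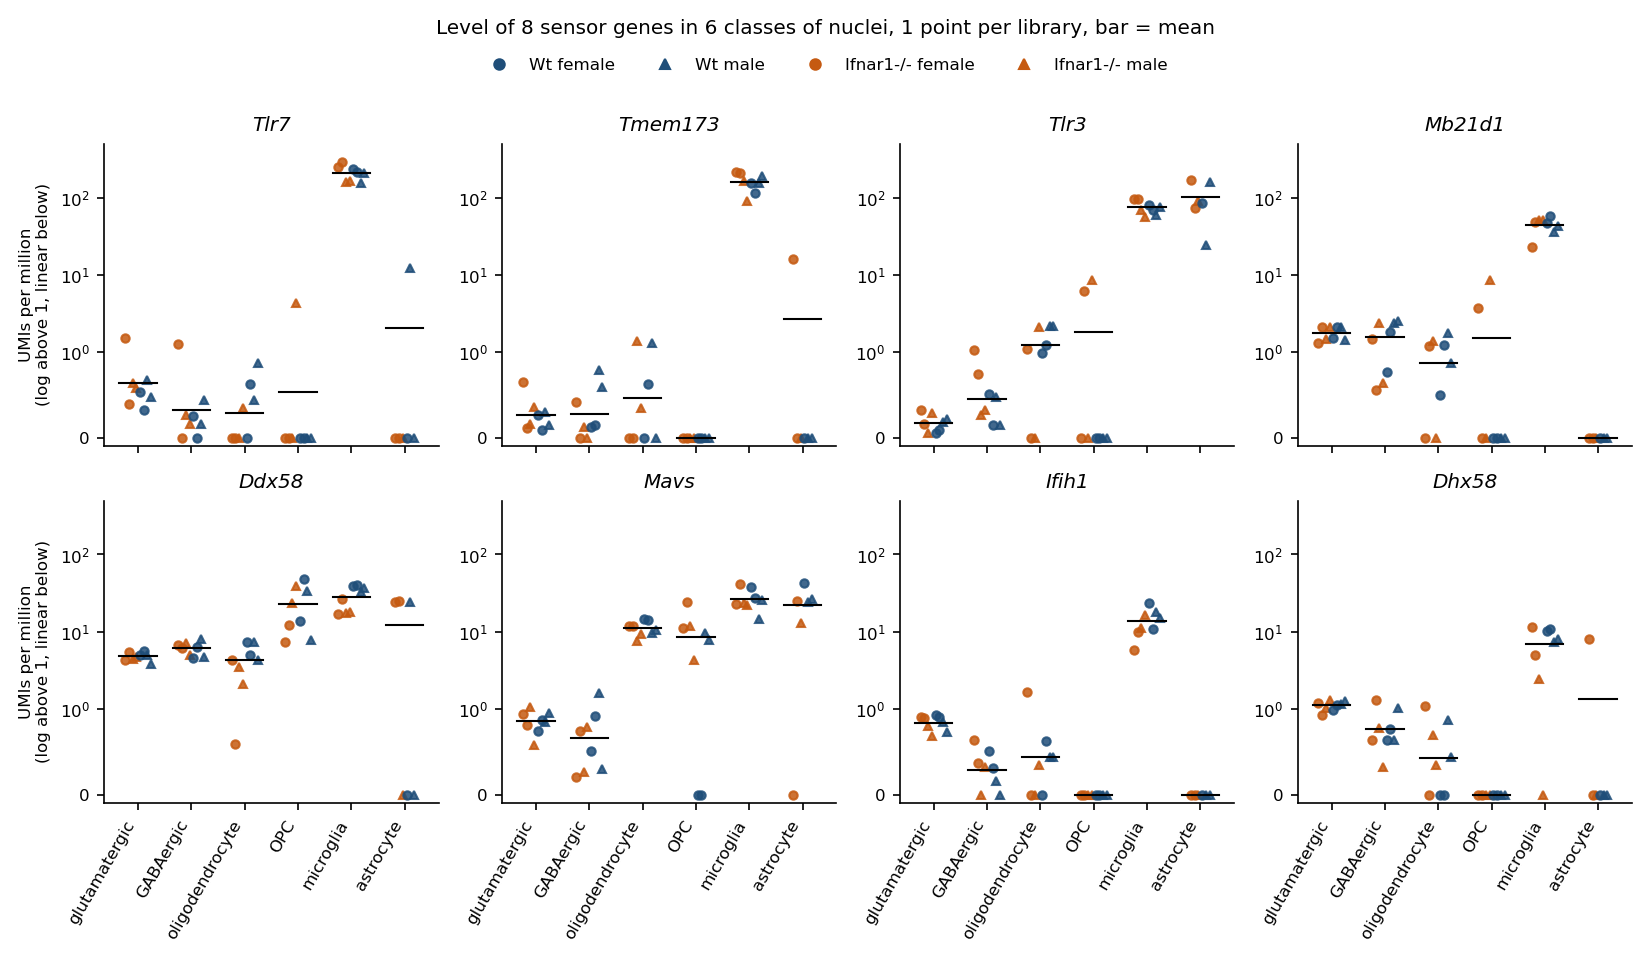
CPM (UMIs per 1000000 of the class total, axis linear to 1 and logarithmic above) of 8 sensor genes in 6 cell classes, with 1 point per library and a line at the mean. *Tlr7*, *Tmem173* and *Mb21d1* have their highest mean in microglia, *Tlr3* reaches 24.2 to 170.2 in astrocytes, and *Ddx58* and *Mavs* have UMIs in every class.

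*Ddx58* (ENSMUSG00000040296, chr4:40203773-40239828 on build GRCm38, minus strand) had the most UMIs and was found in all 6 classes, as were *Mavs*, *Tlr3* and *Tlr7*. Its level was 28.3 ± 9.95 (SD, n = 8 libraries) in microglia, 23.1 ± 15.4 (n = 8) in OPC from only 29 UMIs, and 12.2 ± 13.4 (n = 6) in astrocytes from 6 UMIs. It was 6.08 ± 1.27 in GABA, 4.77 ± 0.604 in Glut and 4.33 ± 2.36 in Oligo (n = 8 each). Microglia exceeded Glut, GABA and Oligo in 8 of 8 libraries, with ranges that did not overlap and a ratio of mean levels of 5.94 over Glut. Microglia exceeded OPC in 4 of 8 libraries (exact sign-flip test over libraries, two-sided, p = 0.414), so the order of those neighbours was within their spread. GABA exceeded Glut in 7 of 8 libraries (exact p = 0.0234, 0.146 after Benjamini-Hochberg adjustment over 42 neighbour pairs).

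*Ifih1* (ENSMUSG00000026896, chr2:62595798-62646255, minus strand) was at 13.9 ± 5.57 in microglia and 0.836 ± 0.0914 in Glut (n = 8 each), a ratio of 16.6. It had 14 UMIs in GABA, 7 in Oligo and 0 in OPC and in astrocytes. *Dhx58* (ENSMUSG00000017830, chr11:100694884-100704271, minus strand), the family member without a signalling domain, was at 6.89 ± 4.13 in microglia, 1.12 ± 0.133 in Glut, 0.760 ± 0.292 in GABA and 0.429 ± 0.424 in Oligo (n = 8 each). Microglia exceeded Glut in 7 of 8 libraries for *Dhx58*, since Ifnar1-/- M2 had 0 microglial UMIs of it. Its annotation overlaps the antisense gene *Dhx58os* over 28.1% of its length.

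*Mavs* (ENSMUSG00000037523, chr2:131234063-131248025, plus strand), the adaptor of both helicases, had a different order of classes. It was at 26.8 ± 8.67 in microglia, 11.2 ± 2.40 in Oligo and 8.63 ± 7.89 in OPC (n = 8 each), and at 21.9 ± 14.4 (n = 6, 7 UMIs) in astrocytes. In neurons it was at 0.853 ± 0.147 (Glut) and 0.663 ± 0.458 (GABA). Oligodendrocytes thus held 23.9% of all *Mavs* UMIs. Microglia exceeded oligodendrocytes in 8 of 8 libraries and by a ratio of 2.40, against 31.5 over Glut and 40.5 over GABA.

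*Mb21d1* (ENSMUSG00000032344, chr9:78430526-78443237, minus strand) was at 44.4 ± 10.7 in microglia, 1.78 ± 0.368 in Glut, 1.56 ± 0.824 in GABA and 0.865 ± 0.645 in Oligo (n = 8 each), and had 0 UMIs in astrocytes. *Tmem173* (ENSMUSG00000024349, on chromosome 18, minus strand) was at 161 ± 43.5 in microglia against 0.261 ± 0.185 in Glut, 0.277 ± 0.292 in GABA and 0.457 ± 0.592 in Oligo. *Mb21d1*, the sensor of the pair, was 25.0 times higher in microglia than in Glut by mean level. No ratio is given for *Tmem173*, whose level in Glut lies in the range of background described below. OPC held 3 UMIs of *Mb21d1* and 0 of *Tmem173*.

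*Tlr7* (ENSMUSG00000044583, chrX:167304929-167330558, minus strand) was at 209 ± 47.7 in microglia, against 0.642 ± 0.377 in Glut, 0.317 ± 0.409 in GABA and 0.284 ± 0.340 in Oligo (n = 8 each). *Tlr3* (ENSMUSG00000031639, chr8:45395665-45411080, minus strand) was at 75.2 ± 14.96 in microglia (n = 8). It was the one gene with its highest mean level in astrocytes, at 100.4 ± 54.9 (n = 6), and 43 UMIs in that class. In astrocytes the libraries gave 86.0 (Wt F1), 24.2 (Wt M1), 158 (Wt M2), 170.2 (Ifnar1-/- F1), 74.2 (Ifnar1-/- F2) and 89.5 (Ifnar1-/- M2). Astrocytes exceeded microglia in 4 of 6 libraries (exact sign-flip test, two-sided, p = 0.313), so the order of these neighbours was within their spread, and the other 4 classes lay at or below 1.83 ± 3.46. A small antisense gene, *Gm45542*, covers 4.5% of *Tlr3*.

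Across all genes and classes, 42 pairs of neighbouring classes were compared. With 8 libraries the smallest exact p is 0.0078125 and with 6 it is 0.03125, and no pair passed 0.05 after Benjamini-Hochberg adjustment (lowest 0.0820, for 4 pairs at 8 of 8 libraries). Those 4 were *Ifih1* and *Mb21d1* in microglia over Glut, *Tlr3* in microglia over OPC, and *Tmem173* in Glut over OPC. The last rests on 0 *Tmem173* UMIs among the 1265533 UMIs of OPC. A class of that depth could also give 0 at the pooled Glut level of 0.256 CPM, so this pair does not order the classes.

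Free RNA from broken cells gives low counts in every class of droplet data, and microglial marker genes measure it. The pooled levels of 9 such markers in Glut were 0.106% to 3.30% of those in microglia (median 0.165%). In GABA they were 0.0773% to 3.05% (median 0.174%), and in Oligo 0.193% to 1.49% (median 0.424%). *Tmem173* (0.167%), *Tlr3* (0.226%) and *Tlr7* (0.308%) in Glut lay inside that range, as they did in GABA (0.177%, 0.586% and 0.141%). By this measure such levels cannot be told apart from free RNA. *Tlr7* was uneven between Glut clusters, at 1.69 CPM in a cluster of 1535 nuclei and 0.076 in a cluster of 1354. A Glut cluster of 118 nuclei, 62.7% of them from Ifnar1-/- F1, held 23 of 158 *Tlr7* and 15 of 64 *Tmem173* UMIs of Glut. The cause was not tested. In Glut, *Mavs* (3.07%) was just inside the range, and *Mb21d1* (3.77%), *Ifih1* (5.46%), *Ddx58* (16.3%) and *Dhx58* (18.2%) were above it. In GABA, *Ifih1* (1.77%) and *Mavs* (2.36%) were inside the range, and *Mb21d1* (3.37%), *Dhx58* (12.3%) and *Ddx58* (20.5%) were above it. The upper end of the range in both neuronal classes is set by 1 marker, *P2ry12*, and the next, *Cx3cr1*, stood at 0.908% in Glut and 1.16% in GABA, below *Mavs* in both and below *Ifih1*. In Oligo, *Tlr7* (0.151%) was below the lowest marker and *Tmem173* (0.284%) inside the range, while *Mb21d1* (1.72%), *Tlr3* (1.88%), *Ifih1* (2.85%), *Dhx58* (7.08%), *Ddx58* (14.8%) and *Mavs* (39.7%) were above the highest. The Oligo values of *Mb21d1*, *Tlr3*, *Ifih1* and *Dhx58* rest on 7 to 22 UMIs.

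**Figure D2:**
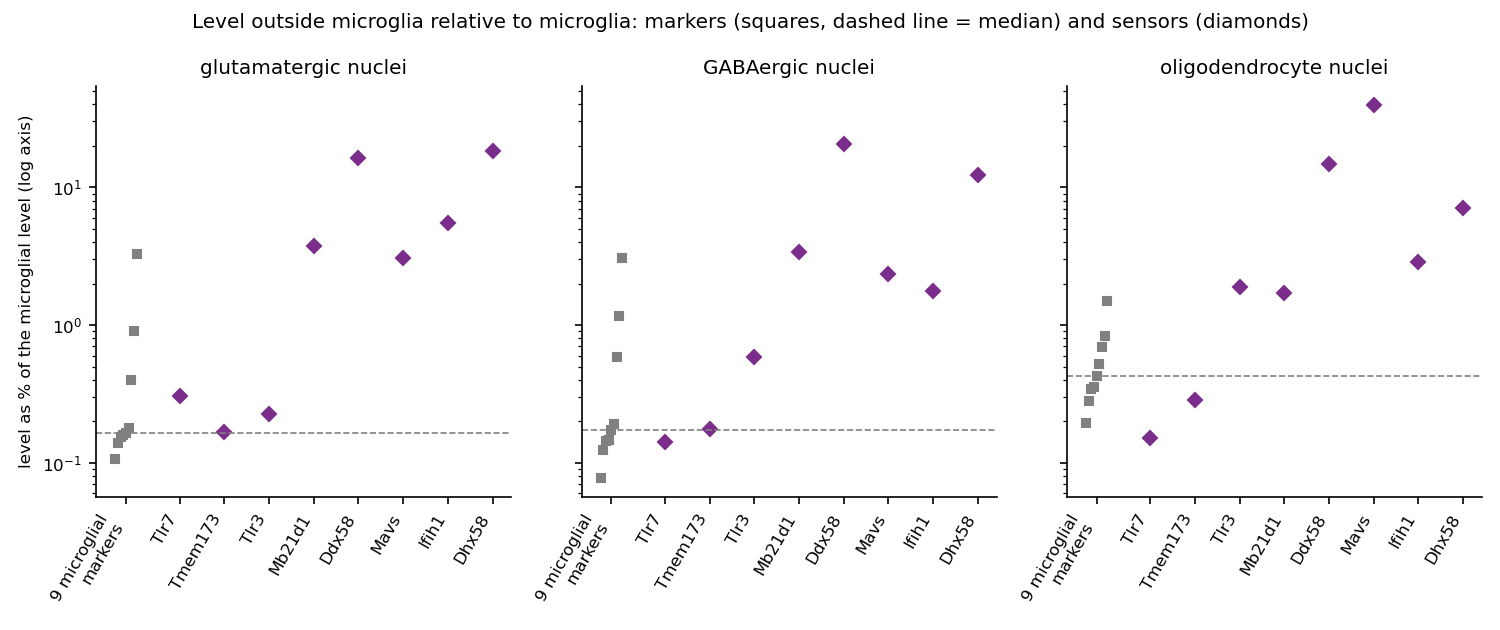
Pooled level of each gene in glutamatergic neurons, GABAergic neurons and oligodendrocytes as a percent of its level in microglia (logarithmic axis), for 9 microglial marker genes and the sensor genes. *Tlr7*, *Tmem173* and *Tlr3* lie among the markers in both neuronal classes, and *Ddx58* and *Dhx58* lie above them in all 3 classes.

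The share of nuclei with at least 1 UMI depends on the depth of the nuclei as well as on the level. In microglia it was 24.5% for *Tlr7* (95% Wilson interval 23.2 to 25.8%, 1073 of 4386 nuclei), 19.7% for *Tmem173* (18.6 to 20.9%), 10.0% for *Tlr3* (9.18 to 10.96%) and 6.66% for *Mb21d1* (5.96 to 7.43%). In Glut, where nuclei had a median of 8927 UMIs against 1472 in microglia, it was 0.581% for *Tlr7*, 0.232% for *Tmem173*, 0.140% for *Tlr3* and 1.61% for *Mb21d1*. *Ddx58* was found in 4.28% of Glut and 4.195% of microglial nuclei, but in 0.446% and 2.67% once each nucleus was thinned to 1000 UMIs. At that depth its share was highest in astrocytes (2.92%, 5 of 171 nuclei), and *Tlr7* stood at 17.3% in microglia. In astrocytes *Tlr3* had a UMI in 18.1% of nuclei (13.1 to 24.6%), or 11.7% after thinning. No nucleus was left out by thinning, and these intervals cover counting error only.

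*Zbp1* (ENSMUSG00000027514, chr2:173206612-173218923, minus strand) had 25 UMIs in 52079 nuclei. Of these, 15 (60%) lay in nuclei that resembled striatal projection neurons, in 6 of 8 libraries, with 1, 3, 3 and 1 in Wt F1, F2, M1 and M2 and 6, 0, 0 and 1 in the Ifnar1-/- libraries. Microglia had 5, and Glut had 4. The microglial UMIs came from Wt F1 (2), F2 (2) and M2 (1), and the 4 Ifnar1-/- libraries had 0. The pooled Wt level was 1.39 CPM, and a floor of 3 UMIs over the Ifnar1-/- group allows up to 0.980 CPM there. With counting error on the 5 Wt UMIs as well, no fold is given. Over all nuclei, 16 Wt and 9 Ifnar1-/- UMIs gave means that overlapped (0.0836 ± 0.0232 and 0.0534 ± 0.0675 CPM, n = 4 each, exact permutation test, two-sided, p = 0.429).

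*Trex1* (ENSMUSG00000049734, chr9:109057933-109059734, minus strand) had 0 UMIs in every library and class, which at 0 of 4386 microglial nuclei allows a share of nuclei with a UMI of up to 0.0684%. The gene lies wholly (100%) within *Atrip*, a DNA damage response gene on the same strand that had 6497 UMIs (17.4 CPM over all nuclei). Reads from this interval cannot be told apart between the genes, so the 0 is not a measure of *Trex1* expression.

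Between genotypes, the question was whether loss of the interferon receptor in unchallenged mice was accompanied by lower levels of the sensors. After removal of genes with low counts, 6 of the 10 genes were tested in Glut, 2 in GABA, 1 in Oligo and 7 in microglia, 16 tests on 8 genes. With edgeR (quasi-likelihood, Benjamini-Hochberg over all genes of a class) no test reached an adjusted p under 0.05, and none did with DESeq2. Of all genes tested, 0.0595% passed in Glut, 0.027% in GABA, 0.0631% in Oligo and 0.105% in microglia. At an unadjusted p under 0.05 edgeR counted 1 of the 16, and DESeq2 also 1, beside 1.7% of all genes in Glut, 1.75% in GABA, 1.97% in Oligo and 1.55% in microglia (edgeR). The median log2 fold change of the genes was -0.01 in Glut, -0.22 in GABA, -0.23 in Oligo (*Mavs* alone) and 0.03 in microglia, beside medians of all genes within 0.01 of 0.

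The gene with the unadjusted call was *Ddx58* in microglia. It stood at 39.4, 39.7, 32.6 and 36.3 CPM in Wt F1, F2, M1 and M2, and at 17.1, 26.1, 17.2 and 18.1 in the Ifnar1-/- libraries in that order. Every Ifnar1-/- value lay below every Wt value, a separation that was not counted over all genes. The means were 37.0 ± 3.31 and 19.7 ± 4.34 (SD, n = 4 each), from 135 and 61 UMIs, of which Ifnar1-/- F1 gave 3. The log2 fold change was -0.89 (standard error 0.24, unadjusted p = 0.0034 in edgeR), and the adjusted p was 1.0, or 0.542 to 1.0 over the alternatives. Without Ifnar1-/- M2, the library that stood apart, it was -0.81 (unadjusted p = 0.0158 in edgeR), and leaving out each library in turn gave -1.10 to -0.79.

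**Figure D3:**
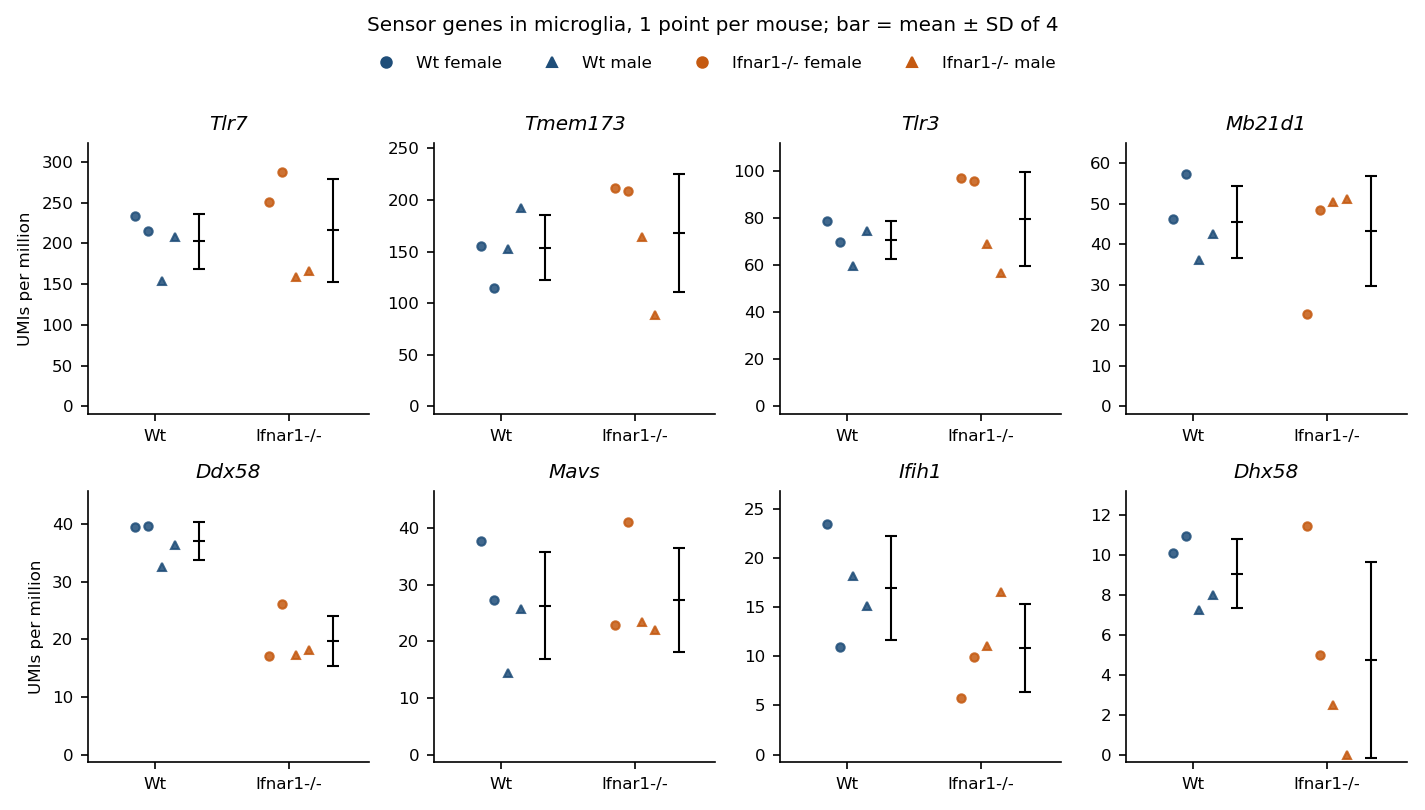
CPM in microglia for 8 sensor genes, with 1 point per mouse (circles female, triangles male) and bars at the mean ± SD of 4 mice. *Ddx58* stands at 32.6 to 39.7 in Wt and 17.1 to 26.1 in Ifnar1-/-.

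In Glut and GABA the *Ddx58* values overlapped between genotypes. Glut stood at 4.83 ± 0.732 in Wt and 4.71 ± 0.553 in Ifnar1-/- (a log2 difference of -0.03, standard error 0.17), and GABA at 5.94 ± 1.66 and 6.22 ± 0.971 (0.08, standard error 0.24). Oligodendrocytes had too few counts for the model. There the libraries gave 7.45, 4.96, 7.37 and 4.36 in Wt and 4.36, 0.595, 3.47 and 2.08 in Ifnar1-/-, from 50 and 20 UMIs. The 2 groups met at 4.36, and an exact permutation test of the means (two-sided, 4 against 4, smallest possible p 0.0286) gave p = 0.0571, or 0.623 after Benjamini-Hochberg adjustment over 16 such tests. The ratio of pooled levels, Wt over Ifnar1-/-, was 2.38 (interval from counting error 1.39 to 4.23). In OPC it was 25.8 ± 18.5 and 20.4 ± 13.8, from 14 and 15 UMIs.

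**Figure D4:**
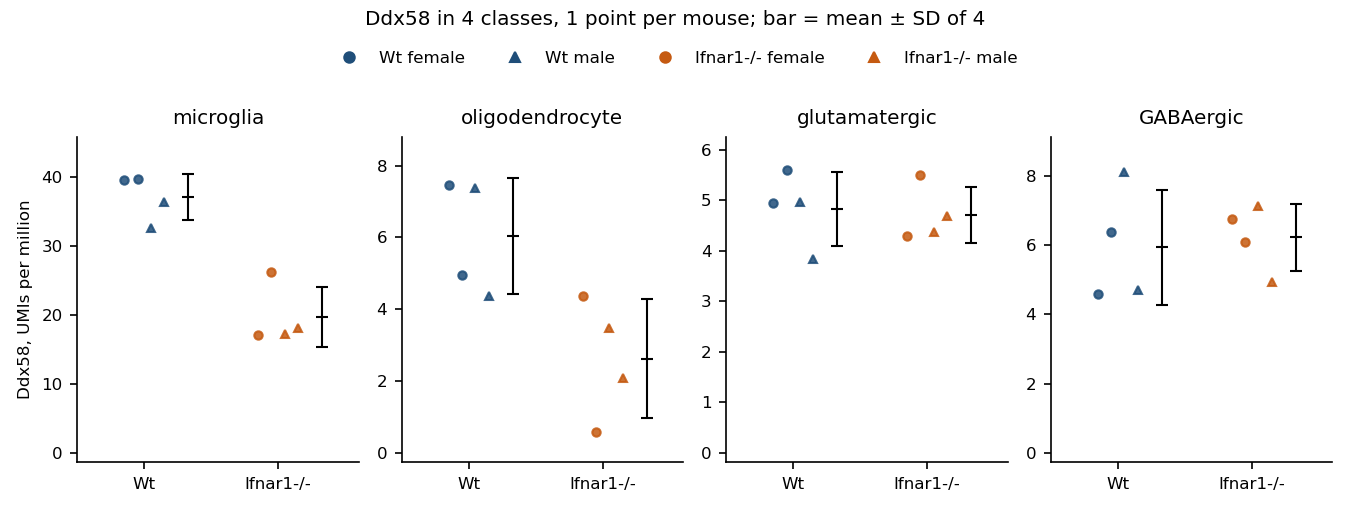
*Ddx58* in CPM, with 1 point per mouse (circles female, triangles male) and bars at the mean ± SD by genotype, in microglia, Oligo, Glut and GABA. The genotypes are apart in microglia (means 37.0 in Wt against 19.7 in Ifnar1-/-). They meet in Oligo (6.04 against 2.63) and overlap in Glut (4.83 against 4.71).

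The genotype difference of *Ddx58* was also compared between classes within a model of both. It was lower in microglia than in Glut by -0.90 on the log2 scale (standard error 0.29, unadjusted p = 0.0055, adjusted p = 1.0 by edgeR), and against Oligo it differed by 0.39 (standard error 0.48, unadjusted p = 0.423). None of 8 sensor genes passed in either comparison, beside 0.0332% of all genes for microglia against Glut and 0.0246% for microglia against Oligo. At an unadjusted p under 0.05 the first comparison counted 2 of the 8 genes, *Ddx58* and *Dhx58* (-1.71, standard error 0.69, unadjusted p = 0.0206, adjusted p = 1.0 by edgeR), and the second 0, beside 2.95% and 3.18% of all genes. A gene could enter these models through only the class where it is high. Fitted by class, *Dhx58* passed the count filter in Glut but not in microglia, and *Tlr3* and *Tmem173* in microglia but not in Glut. In Oligo only *Mavs* passed. Terms that involve a class below the filter rest on few counts there, so no conclusion is drawn from these counts of genes. DESeq2 was not run for these terms.

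*Ifih1* in microglia was at 23.5, 10.9, 18.1 and 15.1 in Wt and 5.71, 9.95, 11.1 and 16.5 in Ifnar1-/-. The groups overlapped, at -0.50 on the log2 scale (standard error 0.36, adjusted p = 1.0 by edgeR). *Dhx58* in microglia, under the filter on counts, was at 10.1, 10.9, 7.24 and 7.98 in Wt and at 11.4, 4.98, 2.46 and 0 in Ifnar1-/-. Its highest value belonged to Ifnar1-/- F1, from 2 UMIs, so the groups overlapped. With 33 and 8 UMIs the ratio of pooled levels was 3.51 (1.59 to 8.78 from counting error, which does not measure the spread between mice). Ifnar1-/- M2, the library that stood apart, weighs most in its pool, with 1269943 UMIs in all and 0 of *Dhx58*. The means over mice were 9.06 ± 1.74 and 4.72 ± 4.91 CPM. Their difference of -4.34 ran from -6.58 to -2.77 when each library was left out in turn. The exact permutation test of the means, two-sided, gave p = 0.171 (0.623 adjusted). *Mavs* in microglia was at 37.8, 27.4, 14.5 and 25.7 in Wt and 22.9, 41.0, 23.4 and 22.0 in Ifnar1-/- (a log2 difference of 0.03, standard error 0.33), and in Oligo it was at 12.2 ± 2.53 and 10.2 ± 2.11 (-0.23, standard error 0.28).

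The DNA sensing pair and the Toll-like receptors had small differences in microglia. *Mb21d1* was at 46.2, 57.5, 36.2 and 42.5 in Wt and 22.9, 48.5, 50.5 and 51.2 in Ifnar1-/- (a log2 difference of 0.01, standard error 0.24). *Tmem173* was at 155, 115, 152 and 192 in Wt and 211, 209, 164 and 89.0 in Ifnar1-/- (0.09, standard error 0.28). *Tlr3* was at 78.9, 69.8, 59.8 and 74.4 in Wt and 97.1, 95.8, 68.9 and 56.7 in Ifnar1-/- (0.12, standard error 0.23). *Tlr7* was at 233, 215, 154 and 207 in Wt and 251, 287, 159 and 166 in Ifnar1-/- (0.07, standard error 0.23). The genotypes overlapped for all 4 of these genes, and each standard error exceeded the difference. In astrocytes *Tlr3* was at 89.5 ± 67.2 in Wt and 111 ± 51.6 in Ifnar1-/- (n = 3 each, exact permutation test, two-sided, p = 0.6, where 3 against 3 cannot go below 0.1).

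Of 16 pairs of gene and class examined by permutation, none passed after adjustment (lowest 0.623), and even the smallest possible p of 4 against 4 would give 0.457 if it stood alone. Marker lists of 12 cell types, summed within microglia, overlapped between genotypes in all 12 cases. In Glut and in GABA 1 of 12 did not overlap.

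The rest of the pathway was counted from 4 lists of genes without the 10 genes. In microglia 19 of 25 genes of the RIG-I-like and MAVS pathway were tested, and 17 of 23 of cGAS, STING and cytosolic DNA. Of the endosomal Toll-like receptors 15 of 20 were tested, and of other RNA sensors, effectors and genes of the ZBP1 death pathway 8 of 19. Genes of the lists that missed the count filter are not covered by the counts below. Between genotypes 0 genes of any list passed in edgeR in Glut, GABA, Oligo or microglia. At an unadjusted p under 0.05 there were 1 in Glut, 0 in GABA, 1 in Oligo and 4 in microglia, where the shares of all genes were the 1.55 to 1.97% given above. DESeq2 passed 0 in every list and class. Median log2 fold changes in microglia were -0.03, -0.01, -0.06 and -0.16 in that order, beside -0.003 over all genes. Lower in Ifnar1-/- microglia were 10, 10, 11 and 7 genes of the lists, and higher were 9, 7, 4 and 1.

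Between sexes, calls were common across the genome: 29.8% of all genes tested passed in Glut, 24.8% in GABA, 22.8% in Oligo and 19.7% in microglia. Among the sensor genes 0 of 6 passed in Glut, 0 of 2 in GABA, 0 of 1 in Oligo and 1 of 7 in microglia (edgeR, genotype in the model), and DESeq2 gave the same counts. At an unadjusted p under 0.05 edgeR counted 0, 0, 1 and 3, and DESeq2 0, 0, 0 and 2, beside 42.3%, 38.6%, 35.8% and 34.0% of all genes in edgeR. The share of calls was similar for autosomal genes (30.0% in Glut, 19.7% in microglia) and for genes on X and Y (24.8% and 22.2%). The sexes also differed in marker lists of other cell types summed within microglia. Of 12 marker lists 4 did not overlap: the GABAergic list summed to 261 to 428 CPM in females and 518 to 600 in males, the OPC list to 34.2 to 57.1 and 57.8 to 85.1, the lymphocyte list to 427 to 545 and 301 to 348, and the red blood cell list to 10.1 to 28.7 and 52.9 to 115. The lymphocyte list was far lower in Glut (25.6 to 31.8 in females and 27.3 to 32.3 in males), so it is not read as RNA from other cells. These separations were not counted over all genes. Sex cannot be told apart from handling that the mice of a sex may have shared, and the part of these lists in the results was not tested.

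The gene that passed was *Tlr7*, which lies on the X chromosome and is known to escape inactivation in some immune cells. Whether escape bears on these values was not tested. Female libraries were at 233 and 215 (Wt) and 251 and 287 (Ifnar1-/-), and male libraries at 154 and 207 (Wt) and 159 and 166 (Ifnar1-/-). All 4 female values lay above all 4 male values, a separation that was not counted over all genes. In microglia 19.7% of all genes passed between sexes and 34.0% had an unadjusted p under 0.05 (edgeR). A call between sexes is thus not particular to *Tlr7*. The log2 fold change, female minus male, was 0.54 (standard error 0.15, adjusted p = 0.0196 by edgeR with Benjamini-Hochberg adjustment, and 0.0374 by DESeq2). The call was lost without Wt M1 (adjusted p = 0.0604), without Ifnar1-/- F2 (0.115) and without Ifnar1-/- M1 (0.0776) in edgeR, and held without Ifnar1-/- M2 (0.0350). Within Wt alone the difference was 0.28 (adjusted p = 0.338) and within Ifnar1-/- alone 0.80 (adjusted p = 0.147), both by edgeR with 2 mice against 2.

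**Figure D5:**
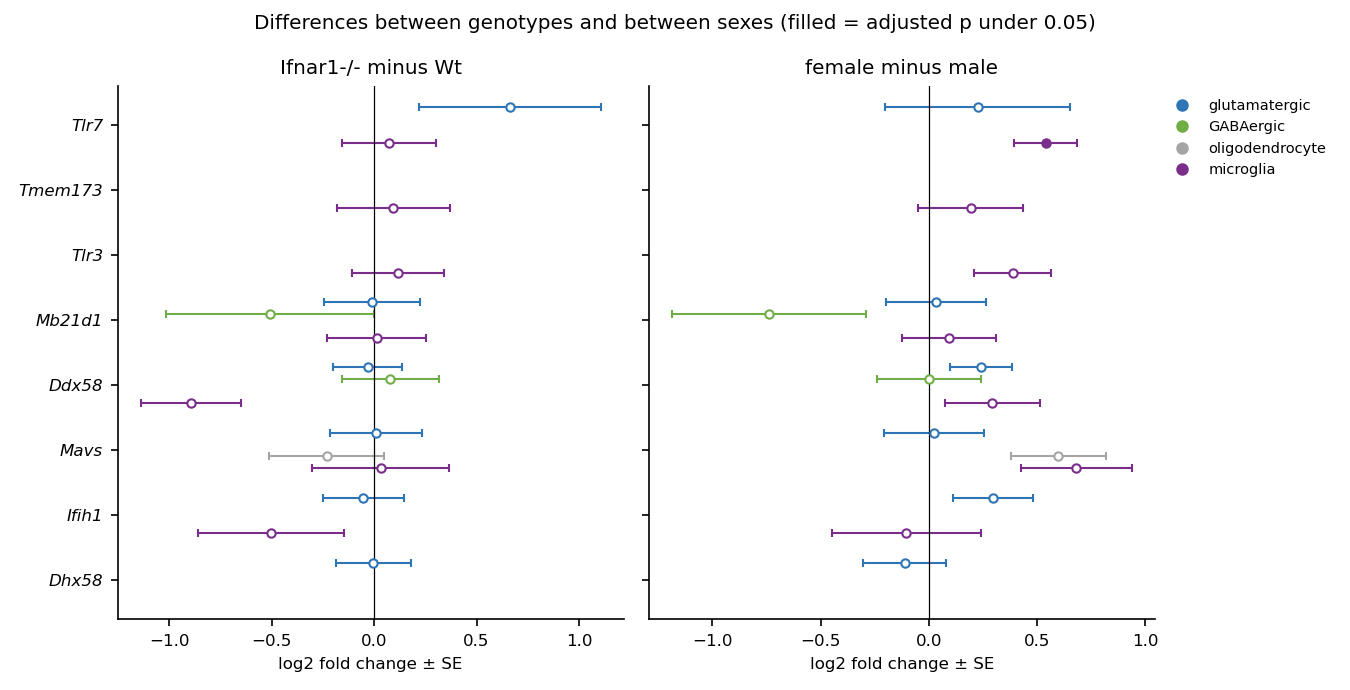
Log2 fold changes with standard errors of 8 sensor genes in 4 cell classes, on the left for Ifnar1-/- minus Wt and on the right for female minus male, with filled points where the adjusted p is under 0.05 (edgeR). Only *Tlr7* in microglia is filled, at 0.54 between sexes, and *Ddx58* in microglia has the lowest value between genotypes, at -0.89.

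Other sensor genes did not pass between sexes. *Mavs* was higher in females by 0.68 in microglia (standard error 0.26, adjusted p = 0.0755 by edgeR) and by 0.60 in Oligo (0.22, adjusted p = 0.0630). In Oligo it stood at 14.4 and 14.3 in Wt females, 9.54 and 10.5 in Wt males, 12.0 and 11.9 in Ifnar1-/- females, and 7.64 and 9.35 in Ifnar1-/- males. *Tlr3* in microglia differed by 0.39 (standard error 0.18, adjusted p = 0.139). *Mavs* in Oligo did not overlap between sexes, with females at 11.9 or above and males at 10.5 or below. That was not counted over all genes, of which 35.8% in Oligo had an unadjusted p under 0.05 between sexes (edgeR). The remaining differences ran from -0.74 (*Mb21d1* in GABA, standard error 0.45) to 0.30 (*Ifih1* in Glut, standard error 0.19). The median over 7 genes in microglia was 0.29, beside 0.01 over all genes.

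Whether the genotype difference itself differed between sexes was tested in 16 pairs of gene and class, 7 of them in microglia. None of the 16 passed in edgeR, and in microglia none of all genes did (0.0%). At an unadjusted p under 0.05 there was 1 of the 16, *Tmem173* in microglia (female minus male 1.16 on the log2 scale, standard error 0.40, unadjusted p = 0.0119, adjusted p = 1.0 by edgeR), beside 2.3% of all genes in microglia. Its values were 211 and 209 in Ifnar1-/- females, 155 and 115 in Wt females, 164 and 89.0 in Ifnar1-/- males, and 152 and 192 in Wt males. For *Tlr7* in microglia the term was 0.51 (standard error 0.27, unadjusted p = 0.0826, adjusted p = 1.0 by edgeR). Outside microglia the lowest unadjusted p was 0.230, for *Tlr7* in Glut (1.07, standard error 0.83, edgeR). DESeq2 was not run for this term.

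In microglia 19.7% of all genes passed between sexes in edgeR. In the pathway lists, sex calls there numbered 0 of 19, 4 of 17, 1 of 15 and 3 of 8, in the order given above (edgeR, adjusted p 0.00587 to 0.0297), and 0, 4, 0 and 3 in DESeq2. Among the genes that passed, those higher in females included *Nlrp3*, an inflammasome sensor (log2 fold change 0.88), *Casp8*, a death protease (0.55), *Irf5*, a transcription factor downstream of TLR7 (0.53), and *Aim2*, a cytosolic DNA sensor (0.46). Lower were *Tmem203* (-1.54), the ubiquitin ligase gene *Trim32* (-1.33) and *Rnaseh2c*, a subunit of RNase H2 (-1.95). *Irf5* did not pass in DESeq2 (adjusted p = 0.0692).

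Neurons and oligodendrocytes had calls in the same lists. In Glut 29.8% of all genes passed between sexes in edgeR. In the lists 5 of 24, 6 of 19, 2 of 14 and 2 of 12 genes passed there in edgeR, and 5, 7, 3 and 3 in DESeq2. Higher in females were, among others, *Dnase2a* (1.61), *Nlrp1b* (1.39), *Rnf125* (0.74) and *Samhd1* (0.32), and lower were *Tmem203* (-1.84), *Rnaseh2c* (-1.54), *Traf6* (-1.25), *Zdhhc1* (-0.88), *Tradd* (-0.69), *Ctsb* (-0.55), *Cnpy3* (-0.54), *Trim32* (-0.34), *G3bp1* (-0.32) and *Ywhae* (-0.22). TRAF6 and TRADD are adaptors downstream of MAVS, and CNPY3 is a chaperone of Toll-like receptors.

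In GABA 3 of 21, 4 of 19, 4 of 13 and 2 of 7 passed in edgeR, and 3, 3, 4 and 2 in DESeq2, among them *Dnase2a* (1.33), *Nlrp1b* (1.29), *Irak4* (0.62) and *Ankrd17* (0.22), which were higher, and *Tmem203* (-1.79), *Rnaseh2c* (-1.74), *Tkfc* (-1.54), *Traf6* (-1.22), *Zdhhc1* (-0.75), *Ctsb* (-0.65), *Lgmn* (-0.64) and *Cnpy3* (-0.49), which were lower. In Oligo 5 of 19, 3 of 16, 3 of 13 and 0 of 3 passed in edgeR, but 1, 1, 3 and 0 in DESeq2. In edgeR *Ddx3x*, an X-linked helicase (0.43), *Cyld* (0.33) and *Pcbp2* (0.31) were higher, and *Rnaseh2c* (-1.65), *Tmem203* (-1.48), *Traf6* (-0.85), *Trim32* (-0.77), *Cnpy3* (-0.68), *Ctsb* (-0.66), *Lgmn* (-0.55) and *Ywhae* (-0.32) lower. DESeq2 did not pass *Ddx3x* (adjusted p = 0.0651), *Cyld* (0.0509), *Pcbp2* (0.0663), *Ywhae* (0.115), *Trim32* (0.0668) or *Rnaseh2c* (0.225) in Oligo, nor *Rnaseh2c* in GABA (0.0692). By edgeR *Tmem203* and *Rnaseh2c* were lower in females in all 4 classes, and *Traf6* in 3 of 4. The classes come from the same mice, so they do not replicate each other. Calls shared by classes were not counted over all genes. Over the 16 combinations of list and class the edgeR shares called lay on both sides of the share over all genes. That share was 29.8% in Glut, 24.8% in GABA, 22.8% in Oligo and 19.7% in microglia. The calls are therefore not read as a result about these lists.

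The genes most alike in pattern were found by Pearson's r of log2(CPM + 1) over 46 sums of a class and library, among 19394 genes with at least 100 UMIs. The points share libraries and depth per class, so r is given as a description. *Tlr7* was most like *Gm46224* (0.986), *Cd300c2* (0.985) and *Nlrp3* (0.982), and *Tmem173* most like *Tnfrsf13b* (0.991), *Gm10552* (0.987) and *Fcgr2b* (0.985). *Mb21d1* was followed by *Tnfaip8l2* (0.965), *Rcsd1* (0.961) and *P2ry13* (0.959), and *Ifih1* by *Gm13814* (0.975), *Ccdc88b* (0.973) and *Batf3* (0.970).

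For the remaining genes the highest r was lower. *Tlr3* was closest to *Tnfaip8* (0.951), *Eva1a* (0.945) and *Slc8b1* (0.927), and *Mavs* to *Ssfa2* (0.885), *Wls* (0.859) and *Npc2* (0.832). *Dhx58* was closest to *2310001H17Rik* (0.863), *Gm34983* (0.85) and *Gm26870* (0.843), and *Ddx58* to *Cpsf6* (0.804), *Dock2* (0.764) and *Tmem86a* (0.756). The highest r thus fell from 0.991 for *Tmem173* to 0.804 for *Ddx58*.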

How the data were processed

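Nuclei of the 8 cortices were sequenced with 10x Single Cell 3' v3 chemistry, and reads were counted by the authors with Cell Ranger (3.1.0 per the file headers) on mm10, intronic reads included. The deposited values are raw UMI counts per gene and nucleus, not normalized, for 4499 to 10249 barcodes per library. The authors' cell classes were not used here. Nuclei with 200 to 6000 genes, more than 1000 UMIs and under 10% mitochondrial UMIs were kept, and Scrublet doublets were removed per library. Nuclei were clustered (scanpy 1.11.5, 3000 variable genes without the sensor and pathway genes, 40 components, 15 neighbours, Leiden resolution 1.5, leidenalg 0.10.2) without integration, and clusters were named from marker lists. UMIs were summed per class and mouse for classes with at least 10 nuclei in a library. They were tested in R 4.3.3 with edgeR 4.0.16 (TMM, filterByExpr, quasi-likelihood test, Benjamini-Hochberg adjustment over all genes of a class, threshold 0.05). The genotype model had no covariate, and the sex model had genotype as a covariate. Interactions of genotype with sex and with class (mouse as a block) were fitted with the same tool. Gene and class pairs removed by the filter but with at least 10 UMIs were compared by exact permutation. Each mouse was 1 replicate, so p-values measure the spread between these mice.

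Alternatives were DESeq2 1.42.0, RLE size factors, no filter, doublets kept, a finer clustering (resolution 3), sex as a covariate, the replicate label as a block, each genotype alone, pooled levels, thinned nuclei, and leaving out each library. The tests were tried on simulated data first. The genes named are all 10 sensor genes, the 3 genes most alike in pattern to each sensor gene with 100 UMIs or more, and the pathway genes that passed a test, except 1 that is counted but not reported here. These genes and lists were chosen with earlier results of these data known. Positions are from GENCODE M21 on GRCm38. The submitters' processing notes also name Seurat 3.1.5, which made no value used here.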

Additional observations from a re-analysis of the deposited data

Results flagged for a closer look

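In 78 groups of 4 libraries (a gene in a class and genotype), 3 held a library far from the other 3, with a gap to its nearest neighbour that exceeded Dixon's critical share of the range. Chance gives about 1 in 20 such groups, or more than were found. In Ifnar1-/- microglia, *Ddx58* of F2 stood at 26.12 CPM, above the others at 17.14 to 18.11, and *Mavs* of F2 at 41.05 CPM, above the others at 22.05 to 23.38. *Mb21d1* of F1 stood at 22.85 CPM, below the others at 48.51 to 51.18, from 4 UMIs in 156 nuclei. The causes were not tested.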

How the results depend on the processing

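The sensor genes rest on few counts, and microglia of Ifnar1-/- F1 (175051 UMIs) least firmly. No sensor gene passed between genotypes under any alternative run, and the microglial difference of *Ddx58* kept its direction in all. Of the log2 fold changes between genotypes 206 kept direction and side of the threshold and 34 changed sign, and between sexes 205 did, with 28 changes of sign and 5 calls lost. Of the CPM differences 150 kept their direction and 10 changed it, and 336 levels moved by less than 1 SD, with 3 beyond it. None that changed sign had an adjusted p under 0.05 before or after the change, and the causes were not tested.

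The number of genes called between genotypes was 41 (Glut), 18 (GABA) and 14 (Oligo) by DESeq2, 23, 10 and 18 with sex as a covariate, and 12 (Oligo) and 22 (Micro) without the filter. Between sexes it was 3175 (Glut), 1722 (GABA) and 1165 (Micro) in Wt alone, and 388, 296, 303 (Oligo) and 13 in Ifnar1-/- alone, where 0 sensor genes passed in microglia in either genotype. Thinning put *Ddx58* highest in astrocytes (2.924% of nuclei).

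With doublets kept, genotype values changed sign to 0.10 (*Dhx58*, Glut), -0.17 (*Mavs*, Glut) and -0.018 (*Ddx58*, GABA), and CPM differences to -0.00972 (*Tlr3*, Glut) and -0.11 (*Tmem173*, Glut). Sex values changed to -0.037 (*Mavs*, Glut), -0.052 (*Mb21d1*, Glut) and -0.12 (*Ddx58*, GABA). Finer clusters gave -0.021 (*Mavs*, Glut, genotype), and no filter gave -0.021 (*Ddx58*, GABA, sex). Sex values in Wt alone were -0.072 (*Mavs*, Glut), -0.36 (*Tlr7*, Glut), -0.13 (*Ddx58*, GABA), 0.17 (*Ifih1*, Micro) and -0.36 (*Tmem173*, Micro), and in Ifnar1-/- alone -0.037 (*Mb21d1*, Glut) and -0.24 (*Mb21d1*, Micro).

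With the replicate label as a block, 14 genes (Oligo) and 17 (Micro) passed between genotypes, *Mavs* in Glut was at -0.00050, *Ddx58* in microglia at -0.89 (adjusted p = 0.854 by edgeR), and no call of a sensor gene changed. Deviations of same-labelled libraries from their genotype's mean correlated at 0.171 to 0.635 in Glut, GABA, Oligo and microglia, but at -0.228 to 0.074 once sex, which the label also names, was removed.

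Leaving out 1 library in turn gave these ranges. Genes called between genotypes numbered 4 to 9 (Glut), 2 to 5 (GABA), 2 to 7 (Oligo) and 3 to 14 (Micro). Between sexes they numbered 3267 to 6412, 1955 to 4529, 1574 to 2736 and 903 to 2198, with 0 to 1 sensor genes in microglia. The microglial count moved by over 1.5 times without any library but Ifnar1-/- F2 between genotypes, and without Wt F2, Wt M2 or Ifnar1-/- F2 between sexes. Genotype values spanned 0 in Glut for *Ddx58* (-0.14 to 0.065), *Ifih1* (-0.13 to 0.029), *Dhx58* (-0.082 to 0.071), *Mavs* (-0.11 to 0.16) and *Mb21d1* (-0.11 to 0.094), in GABA for *Ddx58* (-0.023 to 0.24), and in microglia for *Mavs* (-0.29 to 0.27), *Tlr3* (-0.049 to 0.28), *Tlr7* (-0.15 to 0.21), *Mb21d1* (-0.086 to 0.15) and *Tmem173* (-0.085 to 0.34). Sex values spanned 0 in Glut for *Mavs* (-0.13 to 0.17), *Tlr7* (-0.46 to 0.49) and *Mb21d1* (-0.086 to 0.17), in GABA for *Ddx58* (-0.12 to 0.20), and in microglia for *Ifih1* (-0.56 to 0.062), *Mb21d1* (-0.040 to 0.19) and *Tmem173* (-0.077 to 0.43). CPM differences spanned 0 for *Ddx58* in OPC (-11.4 to 2.05), *Ifih1* in GABA (-0.0144 to 0.196), *Dhx58* in GABA (-0.189 to 0.135), *Tlr3* in astrocytes (-10.9 to 56.2) and *Tlr7* in GABA (-0.0741 to 0.347).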

Other observations

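The 96 nuclei that resembled border macrophages, with 2 to 21 per library and a median of 1544.5 UMIs, were too few for a comparison. They had a *Tlr7* UMI in 26.0% of nuclei (95% Wilson interval 18.3 to 35.6%) and a *Ddx58* UMI in 8.33% (4.28 to 15.6%). As pooled levels, *Dhx58* (557% of the microglial level, 6 UMIs), *Ddx58* (214%, 11 UMIs) and *Ifih1* (187%, 5 UMIs) stood above microglia, and *Mavs* (81.9%), *Tlr7* (77.9%), *Mb21d1* (60.6%), *Tlr3* (31.5%) and *Tmem173* (26.1%) below, with 4 to 28 UMIs each and no test.

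Nuclei that resembled striatal projection neurons had 0 UMIs of *Tlr3* in 2203 nuclei, which allows a share of nuclei with a UMI of up to 0.136% at this depth and sets no limit on nuclei that express the gene. Their *Zbp1* share was 0.636% (14 nuclei, 0.379 to 1.064%), beside 0.0155% in Glut (0.00603 to 0.0398%) at medians of 4731 and 8927 UMIs.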
